A study of Mus musculus with 72 samples.

Results

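The 40 genes described here drive cells through the cycle of DNA replication and division: cyclins and the kinase Cdk1, the factors that license and fire replication origins, the enzymes that supply nucleotides and copy DNA, and the proteins that separate chromosomes. They are a list of names set by known role, with no threshold on measured values but with earlier results of these data known, and were matched to probe sets (the groups of probes that each give 1 signal on an array) through the gene symbol of the array platform. Of the 40, 39 had a probe set that names them alone, out of 18193 genes with such a probe set, and together they had 93 probe sets. Ccnb1, which encodes cyclin B1, was not analysed here. A gene with several probe sets is given by the 1 with the highest mean over all arrays. Total RNA of 4 organs, the brain, heart, kidney and liver, was taken from female SAMP1 mice (an inbred strain prone to accelerated senescence) that ate a control diet, Q10 (the oxidised form of coenzyme Q10) or QH2 (its reduced form). Feeding began at 4 weeks of age and lasted 6 or 14 months, so the mice were 7 or 15 months old, and the mean intake of either compound was 500 mg per kg body weight a day. Each of the 24 combinations of tissue, diet and duration was measured on 3 Affymetrix arrays, from 3 mice per group according to the design text, which gives 72 arrays. All groups are SAMP1, no other strain was included, and the mice were housed 3 to 6 per cage in groups that never changed, so that cage and diet cannot be told apart. No label says whether arrays of the same number in different tissues come from 1 mouse.

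A resting cell enters the cycle when D-type cyclins (Ccnd1, Ccnd2) and E-type cyclins (Ccne1, Ccne2) activate their kinases and free E2F factors such as E2f1, which switch on the replication genes. Cdc6 and Cdt1 load the hexameric Mcm2 to Mcm7 helicase at origins, Cdc45 activates it, Rrm1 and Rrm2 form ribonucleotide reductase, and Pcna is the sliding clamp of the DNA polymerases. Late in the cycle B-Myb complexes and NF-Y act on promoters of mitotic genes, and Cdk1 with A- and B-type cyclins starts mitosis. Adult hepatocytes, tubule cells, cardiomyocytes and neurons rarely divide, whereas bone marrow precursors, activated lymphocytes and some macrophages do, so transcripts of these genes in a whole tissue can come from few cells.

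Promoters of 6 members that were higher in 15-month-old liver on Q10 are shown because promoters of this family are known for a few shared motifs, next to that of Tk1, which was not higher there. Each line gives the 150 bases before the gene's start from RefSeq (GRCm38.p6), read 5′ to 3′ along the gene. Capitals mark CCAAT, the box bound by NF-Y, TTTGAA, known as the cell cycle genes homology region (CHR), and the E2F site letters TTTGGCGC, TTTCCCGC, TTTCGCGC and TTTGCCGC, each on either strand. The stretches lie at chr7:135716380-135716529 (minus strand) for Mki67, chr8:75109359-75109508 (plus strand) for Mcm5, chr10:69352913-69353062 (minus strand) for Cdk1, chr11:99024190-99024339 (minus strand) for Top2a, chr1:128359706-128359855 (minus strand) for Mcm6, chr4:118437344-118437493 (minus strand) for Cdc20 and chr11:117826015-117826164 (minus strand) for Tk1.
Mki67: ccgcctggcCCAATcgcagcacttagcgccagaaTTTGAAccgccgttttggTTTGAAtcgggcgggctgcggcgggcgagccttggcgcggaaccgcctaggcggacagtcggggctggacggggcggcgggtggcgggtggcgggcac
Mcm5: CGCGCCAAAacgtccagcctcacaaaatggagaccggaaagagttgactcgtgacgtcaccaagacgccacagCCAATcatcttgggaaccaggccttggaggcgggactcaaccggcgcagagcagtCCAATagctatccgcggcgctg
Cdk1: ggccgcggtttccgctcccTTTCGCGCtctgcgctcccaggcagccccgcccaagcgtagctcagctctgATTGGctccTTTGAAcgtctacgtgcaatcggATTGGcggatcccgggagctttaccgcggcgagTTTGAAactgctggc
Top2a: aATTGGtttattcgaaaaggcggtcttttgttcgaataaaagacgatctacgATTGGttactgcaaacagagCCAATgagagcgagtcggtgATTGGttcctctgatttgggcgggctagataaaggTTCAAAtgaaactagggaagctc
Mcm6: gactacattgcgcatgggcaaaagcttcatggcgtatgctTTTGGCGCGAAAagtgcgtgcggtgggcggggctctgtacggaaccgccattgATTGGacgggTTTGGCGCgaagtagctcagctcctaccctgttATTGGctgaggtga
Cdc20: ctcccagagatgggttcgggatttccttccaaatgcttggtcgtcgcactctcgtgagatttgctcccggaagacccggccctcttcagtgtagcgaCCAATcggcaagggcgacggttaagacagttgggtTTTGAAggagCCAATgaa
Tk1: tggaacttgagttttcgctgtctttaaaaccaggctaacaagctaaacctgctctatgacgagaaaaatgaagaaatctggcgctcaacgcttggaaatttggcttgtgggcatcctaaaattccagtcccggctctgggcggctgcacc
The Mki67, Top2a and Cdc20 stretches join CCAAT boxes to a CHR, the Mcm5 and Mcm6 stretches join CCAAT boxes to E2F letters, and the Cdk1 stretch holds all 3 kinds. E2F matches overlap in Mcm6 and at the 5′ end of the Mcm5 stretch, which begins inside one, while the Tk1 stretch holds none of these letters. Cdt1, also called higher in these livers, held none of them in the 250 bases before its start. Ube2c, which was not called there, held both CCAAT and a CHR. Whether the motifs go with the change on Q10 was not tested. Over the 250 bases before the start, CCAAT was in 24 of the 32 members with a RefSeq promoter entry (75%) against 34.5% of 27025 promoters. The CHR was in 9 of 32 (28.1% against 16.3%), CCAAT together with a CHR in the same 9 (28.1% against 5.73%), and E2F letters in 5, Mcm5, Mcm6, Mcm7, Cdk1 and Cdc6 (15.6% against 1.91%). A match is a run of letters, not a measured binding site.

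The values are linear signals; within a tissue the 18 arrays were quantile normalised and log2(signal + 1) was taken. Mean deposited signals of single arrays lay between 85.8 and 174 for liver, 133 and 264 for kidney, 109 and 281 for heart, and 143 and 282 for brain. In heart they lay between 109 and 140 at 6 months and between 151 and 281 at 14 months, without overlap. The part of this difference in changes with age was not tested beyond the counts on values as deposited. Defining genes of hepatocytes, kidney tubule, cardiomyocytes and neurons had their high signals in the labelled tissue, and in liver the highest mean among the 8 tubule and 8 cardiomyocyte genes stayed under 20. Arrays 2 and 3 of the Q10 14-month group stood apart in liver, kidney and heart. They held more immune cell transcripts, as the marker lists below show, and results of that group are given with and without them. The ratio of the 3′ to the 5′ Actb control probe sets, a common check of RNA quality, was 3.05, 1.59 and 1.98 on the 3 liver Q10 14-month arrays, 3.49, 3.88 and 4.11 in their controls and 7.36, 3.67 and 5.01 on QH2. In fits by limma a probe set was called at an adjusted p under 0.05 (Benjamini-Hochberg over the 27022 probe sets tested in a tissue), log2 changes carry limma's standard error after ±, and n is 3 arrays per group. The filter on low means left 18 members to test in brain, 31 in heart and 30 each in kidney and liver.

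In 15-month-old liver 13 of the 30 tested members were called higher on Q10 than on control diet and none lower, against 3.73% of all probe sets called higher. Changes of the called members ran from 2.38-fold for Pcna to 13.2-fold for Mki67, the proliferation antigen Ki-67. Over the 39 measured members 35 changes were positive and the median log2 change was 1.78, beside -0.10 over all probe sets tested. In whole tissue, fewer cells of a type and less RNA per cell cannot be told apart, and the same holds for more cells and more RNA. Arrays 2 and 3 both lay above all 3 controls in 35 of 39 members, as did 20.5% of all tested probe sets, while array 1 was the lowest of the 3 in 37 of 39.

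**Figure D1:**
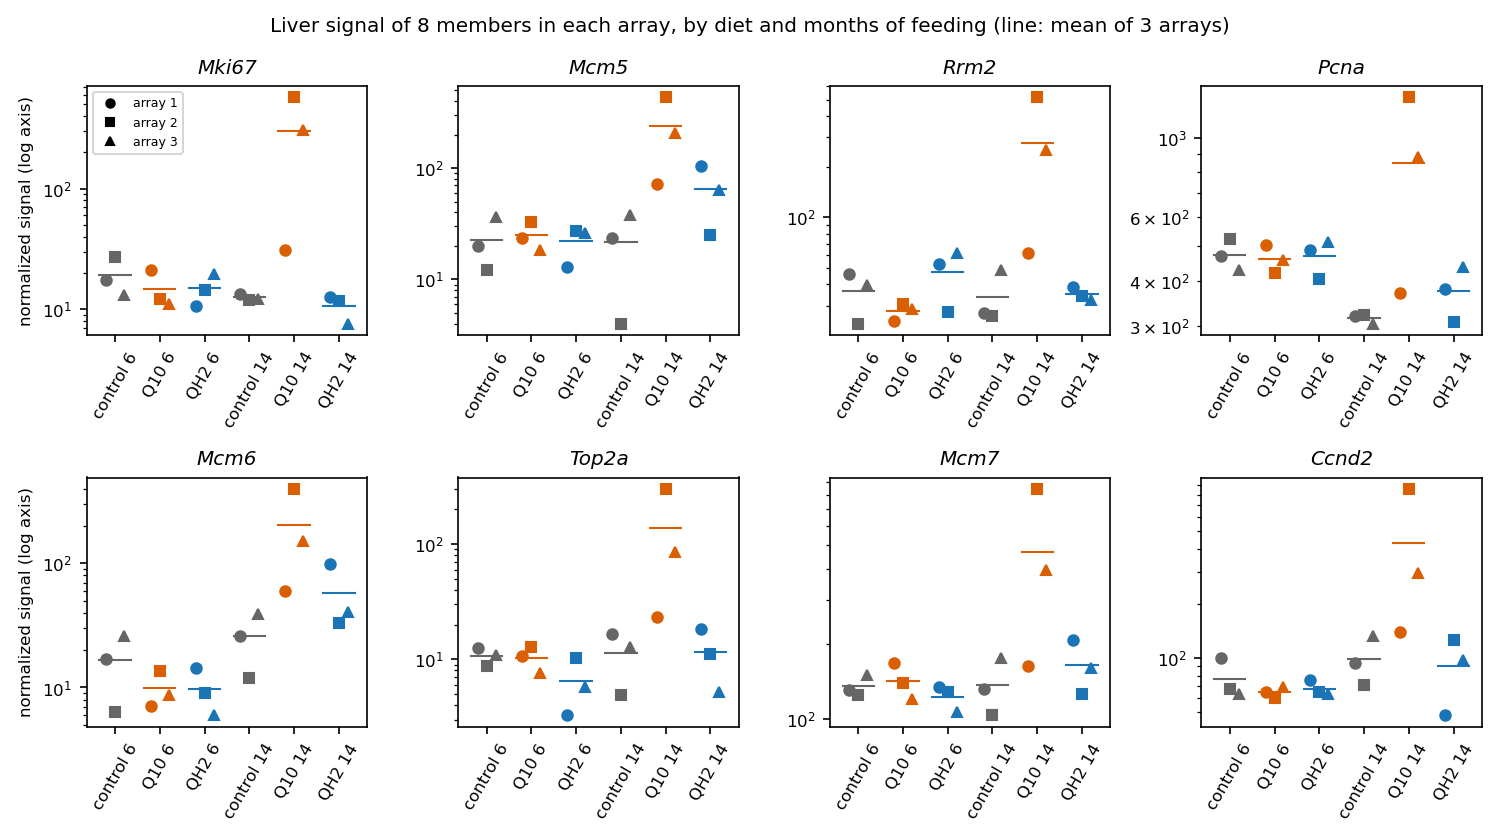
Normalised signal (log axis) on each liver array at both durations of feeding, by diet (control, Q10, QH2). The members drawn are those with the smallest p among the members called for Q10 in 15-month-old liver. Each array is 1 point, with a bar at the mean of the 3 arrays of a group. In 15-month-old liver, arrays 2 and 3 of the Q10 group lie above the other 7 arrays of that age. Mki67 reaches 573 and 305 on them against 31.1 on array 1.

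Among the genes of mitotic chromosomes, Mki67 read 13.4, 11.9 and 12.2 on the 3 control arrays, 31.1, 573 and 305 on Q10 and 12.5, 11.8 and 7.54 on QH2. All Q10 arrays lay above all controls, and the log2 change was 3.72 ± 0.67, adjusted p = 0.00305. Top2a, the topoisomerase that untangles replicated DNA, read 16.6, 4.88 and 12.9 in controls and 23.5, 301 and 86.02 on Q10 (2.94 ± 0.68, adjusted p = 0.0158). Its QH2 arrays read 18.5, 11.2 and 5.24, which overlap the controls.

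Of the 6 subunits of the replication helicase Mcm5, Mcm6 and Mcm7 were called. Mcm5 read 23.7, 3.99 and 37.7 in controls, 72.6, 433 and 208 on Q10 and 105, 24.9 and 63.8 on QH2. Its Q10 arrays did not overlap the controls (log2 change 3.49 ± 0.68, adjusted p = 0.00555), but QH2 arrays 1 and 3 also lay above them. Mcm6 read 26.1, 11.8 and 39.4 in controls, 59.4, 399 and 151 on Q10 and 99.03, 33.3 and 40.7 on QH2 (2.68 ± 0.61, adjusted p = 0.0152 for Q10). Mcm7 read 131, 103 and 176 in controls and 163, 847 and 399.6 on Q10, where array 1 fell among the controls (1.51 ± 0.37, adjusted p = 0.0237). Cdt1, the loading factor, was called as well (1.72 ± 0.48, adjusted p = 0.0427), with array 1 at 41.0 between controls of 21.3 to 51.6. The other subunits were not called, with 1.12 ± 0.42, adjusted p = 0.117 for Mcm2, 1.48 ± 0.55, adjusted p = 0.117 for Mcm3 and 1.78 ± 0.53, adjusted p = 0.0524 for Mcm4. Of the 10 genes for E2f1 and origin licensing 9 were tested, 4 were called higher and all 10 changes were positive.

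Nucleotide supply and the replication fork gave 3 calls of 4 tested. Rrm2, the regulated subunit of ribonucleotide reductase, read 27.2, 25.9 and 48.7 in controls, 61.8, 516 and 251 on Q10 and 38.9, 34.4 and 32.2 on QH2. Every Q10 array lay above every control (2.59 ± 0.51, adjusted p = 0.00566). Its partner Rrm1 rose by less (1.41 ± 0.36, adjusted p = 0.0269). The Pcna clamp read 319, 320.4 and 303 in controls and 369, 1294 and 880.2 on Q10 (1.25 ± 0.28, adjusted p = 0.0146), and 378, 307 and 437 on QH2. Thymidine kinase Tk1 did not follow: it read 166, 151 and 149.98 in controls and 209, 113 and 129 on Q10, with arrays 2 and 3 below every control (-0.10 ± 0.21, adjusted p = 0.855). Thymidylate synthase Tyms stayed under 11 on all of these arrays and was not tested.

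Of the cyclins, Ccnd2 read 94.2, 71.1 and 132 in controls, 138, 860.4 and 296 on Q10 and 48.2, 126 and 97.4 on QH2 (1.76 ± 0.45, adjusted p = 0.0266 for Q10). Array 2 was far above the rest, and array 1 lay just above the highest control. The mitotic kinase Cdk1 read 4.12, 1.99 and 13.9 in controls and 11.1, 138 and 83.4 on Q10, array 1 overlapping (3.09 ± 0.88, adjusted p = 0.0455). Cyclin D1, Ccnd1, is abundant in liver and read 183, 121 and 279 against 254, 315 and 377 (0.76 ± 0.36, adjusted p = 0.228, not called). In the checkpoint and anaphase group Cdc20, activator of the anaphase promoting complex (2.65 ± 0.68, adjusted p = 0.0272), was called, and among the mitotic kinases Aurka, Aurora A kinase (2.24 ± 0.65, adjusted p = 0.0485). None of the 4 tested spindle and cytokinesis genes was called (limma, 3 at unadjusted p under 0.05, beside 5819 of all 27022 probe sets). Ube2c, the ubiquitin-conjugating enzyme of the anaphase promoting complex, read 1.65, 191 and 116 on Q10 against 8.87, 3.14 and 11.9 in controls and missed the threshold (2.27 ± 1.17, adjusted p = 0.276). Tpx2, a spindle gene, was not higher on any Q10 array than the highest control (6.36, 6.62 and 12.4 against 14.9, 10.3 and 13.01). Bub1 and Bub1b, checkpoint kinases, stayed under 8 on the Q10 arrays and were not tested.

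Of 31 other tested probe sets of the members 28 changed in the same direction in this comparison, including all 17 that belong to called members, 5 of them called. Second probe sets were called for Rrm2, Ccnd2 and Rrm1, and Mcm2, not called by its chosen probe set (1.12 ± 0.42, adjusted p = 0.117), was called by another. Outside the 40, of 36 further mitotic genes 25 were tested and 9 called higher, among them Spc25 of the kinetochore (1.58 ± 0.28, adjusted p = 0.00247), securin Pttg1 (1.41 ± 0.27, adjusted p = 0.00433), the kinesin Kif22 (2.18 ± 0.43, adjusted p = 0.00562) and the cohesin protector Cdca5 (2.31 ± 0.46, adjusted p = 0.00633). Of 20 further replication genes 18 were tested, with primase subunit Prim1 (1.79 ± 0.40, adjusted p = 0.0137) and geminin Gmnn (0.84 ± 0.24, adjusted p = 0.0414) called higher and the initiation factor Mcm10 called lower (-1.13 ± 0.33, adjusted p = 0.0471). None of the 7 tested G1 kinases and phosphatases was called (limma, 1 at unadjusted p under 0.05, beside 5819 of all 27022 probe sets). Among 13 tested brakes of the cycle Btg2, an antiproliferative gene, was called higher (1.42 ± 0.34, adjusted p = 0.0192).

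Immune cell transcripts were also higher on Q10 arrays 2 and 3, though the order of these 2 arrays differed between lists. The summed signal of 39 members was 1323, 1074 and 1606 in controls, 1774, 8138 and 4588 on Q10 and 1670.3, 1340.02 and 1735 on QH2. The 12 macrophage genes, all called higher on Q10, summed to 2183, 990.2 and 2337 in controls and 6141, 14400.2 and 20449 on Q10. The 7 B cell genes, also all called, summed to 347, 177 and 374 and 855, 7899.9 and 1938. The 8 neutrophil genes, 6 of them called, summed to 695, 155 and 94.95 and 346, 15339 and 5853, so array 2 was highest for B cells and neutrophils, and array 3 for macrophages. Of 7 T cell genes 4 were tested and 2 called (50.1, 26.2 and 35.99 against 110.3, 241 and 212), with Cd4 at a mean deposited signal of 2.42 over the 9 arrays. The 7 hepatocyte genes summed to 66292, 64727 and 64098 in controls and 63368, 56487 and 63715 on Q10, every Q10 sum below every control. None was called (limma, 2 at unadjusted p under 0.05, beside 5819 of 27022 probe sets). No marker value was at 0 on these arrays, and the part of immune cells or RNA quality in the members' change was not tested.

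**Figure D2:**
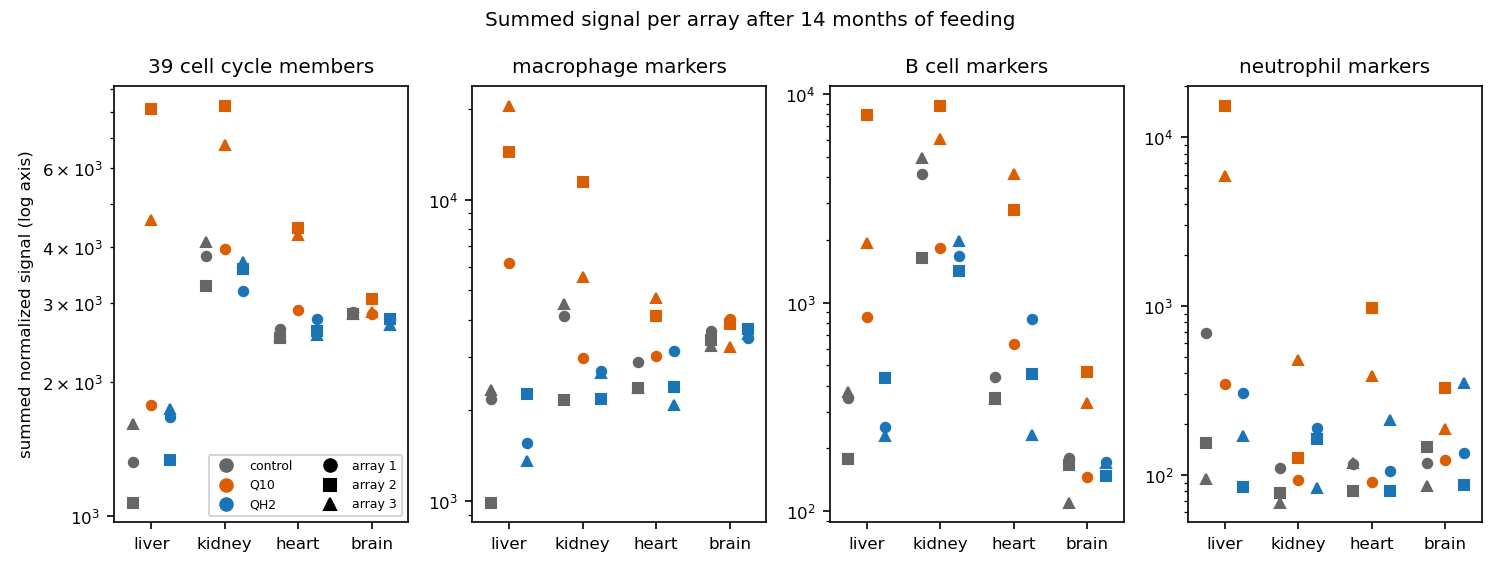
Summed normalised signal (log axis) of the 39 members and of the immune marker lists on each 14-month array of every tissue, 1 point per array, by diet. In liver the Q10 arrays 2 and 3 reach 8138 and 4588 for the members, where the controls lie between 1074 and 1606.

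Without arrays 2 and 3, an alternative chosen after seeing the data that leaves array 1 alone in its group, no member was called in liver. Leaving out 1 array at a time, the 13 calls became 24 without Q10 array 1, 3 without array 2, 3 without array 3, and 6, 3 and 10 without control array 1, 2 or 3. Mki67, Rrm2 and Mcm5 were called in all 6 of these fits. A fit of only the 2 groups compared, or with the Actb ratio as covariate, called none.

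On QH2 no member was called in liver at 14 months (limma, 3 of 30 at unadjusted p under 0.05 beside 1669 of 27022 probe sets, 0% of probe sets called). Closest to the threshold, without passing it, were E2f1 (2.19 ± 0.56, adjusted p = 0.402), Mcm5 (1.74 ± 0.68, adjusted p = 0.751), Ccne1 (2.17 ± 0.98, adjusted p = 0.783) and Ccna2 (-1.16 ± 0.63, adjusted p = 0.844). E2f1 read 3.09, 0.717 and 10.8 in controls and 22.1, 14.1 and 21.7 on QH2, so its groups did not overlap. Weighting the arrays by their fit gave 1 call. Both compounds are set against the same control arrays.

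At the same intake and age QH2 and Q10 livers differed in 9 members, all lower on QH2, against 4.82% of probe sets called lower. These 9 were Mki67 (-3.97 ± 0.67, adjusted p = 0.00189), Rrm2 (-2.48 ± 0.51, adjusted p = 0.0064), cyclin A2 gene Ccna2 (-2.87 ± 0.63, adjusted p = 0.00924), Ccnd2, Top2a, Nusap1, Pcna, Birc5 and Mcm7. Ccna2 read 11.4, 75.6 and 55.5 on Q10 and 3.67, 9.29 and 1.82 on QH2, without overlap. Of 12 other tested probe sets of called members all changed in the same direction and 6 were called. Those of Ccna2 (-1.19), Top2a (-0.45) and Mcm7 were not called. Birc5, which encodes survivin of the chromosomal passenger complex, read 10.7, 132 and 56.6 and 3.25, 0.328 and 10.2 (-3.49 ± 1.01, adjusted p = 0.0348). Nusap1, a spindle protein, read 11.4, 145 and 52.1 and 9.56, 1.67 and 9.55 (-2.78 ± 0.77, adjusted p = 0.0293). Pcna and Mcm7 overlapped through Q10 array 1. The difference was -1.95 ± 0.45, adjusted p = 0.0117 for Ccnd2, -2.92 ± 0.68, adjusted p = 0.0123 for Top2a, -1.01 ± 0.28, adjusted p = 0.0303 for Pcna and -1.24 ± 0.37, adjusted p = 0.043 for Mcm7. All 12 macrophage, 6 of 7 B cell, 6 of 8 neutrophil and 2 of 4 tested megakaryocyte genes were called lower on QH2 as well, and their part in the members' difference was not tested. A fit of only the 2 groups, or with the Actb ratio as covariate, called none, and with that covariate the change of Ccnd2 turned to 0.19. Without Q10 arrays 2 and 3 that of Pcna turned to 0.0059. Counts fell to 2, 4, 4, 5 and 5 without Q10 array 2, Q10 array 3 or QH2 array 1, 2 or 3, rose to 23 without Q10 array 1, and were 0 without Q10 arrays 2 and 3, while Mki67 and Rrm2 were called in all 6 fits that leave out 1 array.

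At 6 months liver gave no member call for Q10 (0.807% of probe sets called), QH2 (0%) or QH2 against Q10 (0.988%). In limma 2, 2 and 1 of 30 members had an unadjusted p under 0.05, beside 2488, 1924 and 2864 of 27022 probe sets. The smallest p on Q10 was that of Tpx2 (-1.05 ± 0.43, adjusted p = 0.422), on QH2 that of Tk1 (0.55 ± 0.21, adjusted p = 0.614), and between the compounds that of Ccnd1 (-0.91 ± 0.36, adjusted p = 0.328). The difference between the Q10 effect at 14 and at 6 months was called for Mki67 (4.07 ± 0.94, adjusted p = 0.0293) and Rrm2 (2.92 ± 0.72, adjusted p = 0.0395), against 0.988% of probe sets called higher. Of the immune genes 9 of 12 macrophage and 2 of 7 B cell genes were called in the same direction, and their part was not tested. Fitting only the groups compared, adding the Actb covariate, omitting the intensity trend and the values as deposited each gave no call. Mki67 read 17.4, 27.05 and 13.2 on control diet and 21.2, 12.03 and 11.1 on Q10 at 6 months, and Rrm2 read 46.4, 23.4 and 39.96 and 24.4, 30.8 and 28.5. Without Q10 14-month array 1 the count was 19, and without 14-month Q10 array 2 or 3, control array 1 or 2, or 6-month Q10 array 2 it was 0. Leaving out 6-month control array 1 or 3, 6-month Q10 array 1 or 3, or 14-month control array 3 left 1. For QH2 the difference between durations gave no call (0% of probe sets, 2 members at unadjusted p under 0.05 beside 1628 of 27022 probe sets, smallest p for E2f1 at 2.29 ± 0.79, adjusted p = 0.719).

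Between 7 and 15 months of age on control diet, E2f1 fell in liver (-1.87 ± 0.56, adjusted p = 0.0465), against 1.87% of probe sets called lower. It read 9.67, 17.1 and 19.97 at 7 months and 3.09, 0.717 and 10.8 at 15 months, overlapping at 1 array. The call was lost in 4 of 6 fits that leave out 1 array (it stayed without 6-month array 1 or 14-month array 3). On Q10 the older livers had 14 members higher (5.69% of probe sets called higher), a comparison that uses the same Q10 14-month arrays as above. All 12 macrophage, all 7 B cell, 6 of 8 neutrophil and 3 of 4 tested T cell genes were called higher too, and their part was not tested. Mcm6 read 7.14, 13.7 and 8.69 at 7 months and 59.4, 399 and 151 at 15 months, 14.7-fold higher (3.88 ± 0.61, adjusted p = 0.00113). Rrm2 (2.81 ± 0.51, adjusted p = 0.00224), Mki67 (3.55 ± 0.67, adjusted p = 0.00276) and Ccnd2 (2.33 ± 0.45, adjusted p = 0.00319) followed. The other 10 were Top2a (2.95), Cdc20 (2.89), Mcm5 (2.90), Mcm3 (2.25), Mcm7 (1.43), Mcm4 (1.91), Aurka (2.35), Nusap1 (2.69), Mcm2 (1.43) and Ccna2 (2.02), as log2 changes. Of 22 other tested probe sets of called members all changed in the same direction and 12 were called. Among those not called were a probe set of Cdc20 (0.30) and a probe set of Mcm3 (0.05). A fit of only the 2 groups gave no call and the Actb covariate 1. Without arrays 2 and 3 none was called, and without 14-month array 2 or 3 or 6-month array 2 the count was 4, 7 or 9, and without 14-month array 1 it was 23. On QH2 Mcm6 alone was called higher with age (2.35 ± 0.61, adjusted p = 0.0483, 1.62% of probe sets called higher), reading 14.3, 9.1 and 5.96 and 99.03, 33.3 and 40.7, and it lost the call in each of 6 fits without 1 array.

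**Figure D3:**
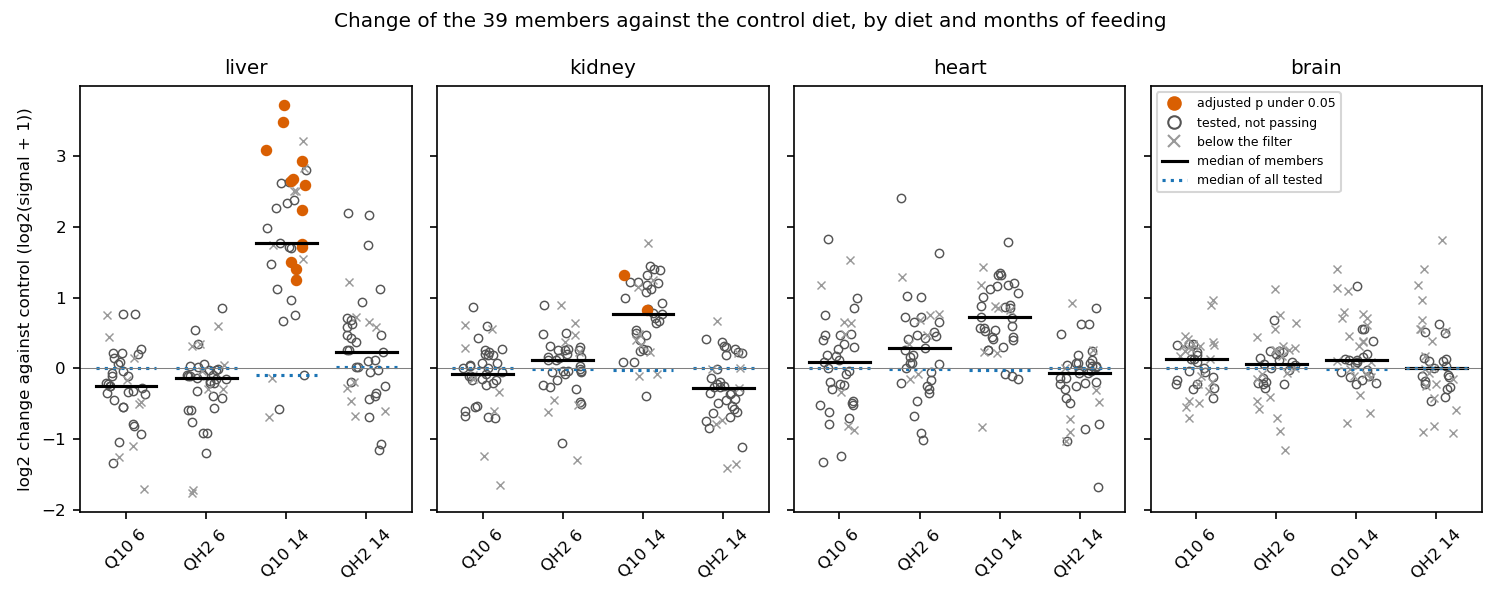
Log2 changes of the members, 1 point per member, for Q10 and QH2 against control at both durations in each tissue, with called members filled. Called members cluster at positive changes for Q10 at 14 months in liver (13).

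Kidney showed the same 2 arrays with a smaller change. Q10 at 14 months gave 2 calls of 30 tested, Ccnd2 and Mcm7, against 0.107% of probe sets called higher, and 36 of 39 members were positive with a median of 0.77. Ccnd2 read 299, 226 and 343 in controls, 669.96, 773 and 700.2 on Q10 and 119, 204 and 224 on QH2. All 3 Q10 arrays lay well above every other 14-month array, array 1 included (1.32 ± 0.21, adjusted p = 0.00801). Mcm7 read 325, 249 and 349 in controls and 391, 647 and 622 on Q10 (0.82 ± 0.17, adjusted p = 0.0326). Mki67 read 69.7, 28.4 and 73.9 and 35.2, 350.2 and 247 and was not called, as array 1 lay among the controls. Arrays 2 and 3 were both above all controls in 31 of 39 members (12.5% of all probe sets) and array 1 was lowest in 34.

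Of 5 other probe sets of Ccnd2 tested in kidney 3 were called higher on Q10 too, with log2 changes of 1.55, 1.28 and 1.42. The other tested probe sets of Mcm7 changed by 0.61, 0.66 and 0.99, and none of them was called. The call of Ccnd2 held in 5 of 6 fits that leave out 1 array. The count of 2 became 0 without control array 2, 1 without control array 1 or Q10 array 2 or 3, and 16 without Q10 array 1, and was 0 without Q10 arrays 2 and 3, with the values as deposited, or in a fit of only the 2 groups. B cell genes summed to 4131, 1637 and 4913 in controls and 1832, 8780.4 and 6083 on Q10, macrophage genes to 4116, 2169 and 4523 and 2984, 11415 and 5551. On Q10 array 1 the B cell, macrophage and T cell sums were no higher than the highest control, and the part of immune cells in the change of Ccnd2 was not tested. The members summed to 3828, 3267 and 4107 in controls and 3958, 8272 and 6749.6 on Q10. The Actb ratio was 3.22, 1.64 and 2.37 on the Q10 arrays and 2.25, 2.48 and 2.10 in controls, and its part was not tested beyond the covariate fit, which called 4 members.

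QH2 against control gave no member call in 15-month-old kidney (0%, limma, 1 of 30 at unadjusted p under 0.05 beside 1561 of 27022 probe sets). Ccnd2 had the smallest member p and a negative change (-0.69 ± 0.21, adjusted p = 0.764). QH2 against Q10 gave 6 members, all lower on QH2, against 2.01% of probe sets called lower. Ccnd2 was 4.04-fold lower (-2.01 ± 0.21, adjusted p = 0.000126) and was called in all 6 fits without 1 array. The others were Mcm7 (-0.96 ± 0.17, adjusted p = 0.00458), Cdc20 (-1.81 ± 0.37, adjusted p = 0.00915), Rrm2 (-1.59 ± 0.38, adjusted p = 0.0216), Mcm3 (-1.61 ± 0.40, adjusted p = 0.0243) and Kif23, a kinesin of cytokinesis (-1.48 ± 0.39, adjusted p = 0.0344). Rrm2 read 82.6, 441 and 309.9 on Q10 and 70.01, 73.7 and 77.9 on QH2, and Cdc20 read 53.6, 199 and 104 and 30.3, 22.8 and 34.5. Mcm3 read 37.9, 182 and 109.8 and 28.9, 34.1 and 25.5, and Kif23 read 18.7, 51.9 and 48.9 and 7.77, 14.6 and 16.7. No group overlapped in these 6 members, but they were picked by their call in the same comparison. Over all 39 members 9 were lower on QH2 without overlap, beside 7.11% of all probe sets. Of 13 other tested probe sets of called members all changed in the same direction and 7 were called. Q10 array 1 was near the QH2 values for Rrm2, Kif23 and Mcm3. Of 10 tested macrophage genes 3 were also lower on QH2, and of 7 B cell genes 1. The count was 3 without Q10 array 2 or 3 or QH2 array 1 or 3, 18 without Q10 array 1, 1 without Q10 arrays 2 and 3, 2 with the values as deposited and 0 in a fit of only the 2 groups.

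At 6 months kidney had no member call for Q10 (0% of probe sets called), QH2 (0.192%) or QH2 against Q10 (0.3%). In limma no member had an unadjusted p under 0.05, beside 1115, 2647 and 2727 of 27022 probe sets. Smallest p values were those of Cdc45 on Q10 (0.86 ± 0.48, adjusted p = 0.999) and on QH2 (0.90 ± 0.48, adjusted p = 0.586), and of Cdt1 between them (0.42 ± 0.26, adjusted p = 0.639). Differences of the effects between durations gave none for Q10 (0.0074%, 7 members at unadjusted p under 0.05 beside 1916 of 27022 probe sets, 2 calls without Q10 14-month array 1) and none for QH2 (0%, 2 members beside 2367 probe sets). For these, Ccnd2 (1.05 ± 0.30, adjusted p = 0.488) and Ccnd1 (0.44 ± 0.20, adjusted p = 0.56) had the smallest p.

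With age on control diet Ccnd2 rose in kidney from 150.3, 144 and 118 to 299, 226 and 343 without overlap (1.06 ± 0.21, adjusted p = 0.00661, 4.61% of probe sets called higher), in all 6 fits without 1 array. B cell genes rose in the same comparison, 6 of 7 called, from sums of 939.9, 929.9 and 728 to 4131, 1637 and 4913, and their part in the change of Ccnd2 was not tested. On Q10 17 of 30 members were higher at 15 months (12.2% of probe sets called higher). Ccnd2 went from 151, 137 and 215 to 669.96, 773 and 700.2 (2.11 ± 0.21, adjusted p = 5.67e-06) and Mcm7 from 204, 244 and 267 to 391, 647 and 622 (1.19 ± 0.17, adjusted p = 0.000124). Cdc20 went from 33.6, 25.3 and 21.2 to 53.6, 199 and 104 (1.94 ± 0.37, adjusted p = 0.000972). Mki67 went from 25.7, 12.3 and 15.2 to 35.2, 350.2 and 247 (3.03 ± 0.58, adjusted p = 0.00104). Rrm2 went from 74.98, 70.1 and 65.5 to 82.6, 441 and 309.9 (1.67 ± 0.38, adjusted p = 0.00382). Ccnd1 went from 726, 909 and 915 to 1238, 1172 and 1472 (0.61 ± 0.14, adjusted p = 0.00496). These 6 members kept the call in every fit without 1 array.

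Mcm5 went from 38.8, 43.3 and 52.8 to 56.1, 320.1 and 218 and Mcm3 from 35.98, 23.8 and 30.3 to 37.9, 182 and 109.8 in the ageing Q10 kidneys. Both kept the call in the same fits. The other 9 called members were Birc5 (2.83), Kif23 (1.35), Ccnb2 (1.66), Mcm4 (0.96), Top2a (2.46), Cdk1 (1.61), Mcm6 (2.46), Nusap1 (2.58) and Ccna2 (1.23), as log2 changes. Of 19 other tested probe sets of called members all changed in the same direction and 13 were called. All 7 B cell, 8 of 10 tested macrophage and 5 of 6 tested T cell genes were called higher too, and 6 of 8 kidney tubule genes lower. The count was 8 without 14-month array 2, 9 without array 3, 11 without 6-month array 3, 6 in a fit of only the 2 groups and 3 without arrays 2 and 3, of which 2 were higher. On QH2 Ccnd1 was the member called, from 815, 600.3 and 902 to 1056, 1347 and 1374 (0.71 ± 0.14, adjusted p = 0.00486, 6.25% of probe sets called higher), 2 members being called without QH2 14-month array 1.

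In heart no member passed on Q10 at 14 months (0% of probe sets called). In limma 10 of 31 members had an unadjusted p under 0.05, beside 2603 of 27022 probe sets. Of 39 changes 35 were positive, with a median of 0.73, beside -0.02 over all probe sets tested. The smallest p values were those of Mcm7 (0.89 ± 0.23, adjusted p = 0.152), Ccnd1 (0.60 ± 0.15, adjusted p = 0.152), Ccnd2 (0.45 ± 0.12, adjusted p = 0.174) and Nusap1 (1.79 ± 0.59, adjusted p = 0.284). Mcm7 read 103, 109.7 and 111 in controls, 128, 268 and 233 on Q10 and 124, 78.1 and 111 on QH2. Mki67 read 27.1, 21.3 and 38.96, 25.4, 99.9 and 143 and 29.9, 27.2 and 17.04, again with arrays 2 and 3 high. Those 2 arrays both exceeded all controls in 30 of 39 members (15.1% of probe sets). B cell genes read sums of 441, 349.5 and 345 in controls and 631, 2791 and 4116 on Q10. Without Q10 array 1 the test called 3 members, and the values as deposited gave 6.

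QH2 hearts gave no member call against control at 14 months (0%, limma, 1 at unadjusted p under 0.05, Ccne1 at -1.68 ± 0.53, adjusted p = 0.743) or against Q10 (0%, 14 at unadjusted p under 0.05, Mcm7 at -0.96 ± 0.23, adjusted p = 0.0954). Over the 27022 probe sets the counts at unadjusted p under 0.05 were 1264 and 2976. Against Q10 there were 7 calls without Q10 array 1 and 3 without QH2 array 1. At 6 months there was none for Q10 (0%, 2 at unadjusted p under 0.05), QH2 (0%, 5) or between them (0.0666%, 1, Cenpe at 1.73 ± 0.74, adjusted p = 0.639). The matching counts over the 27022 probe sets were 1557, 2041 and 1898. Cdk1 had the smallest p for both compounds there, 1.83 ± 0.41, adjusted p = 0.328 on Q10 and 2.41 ± 0.41, adjusted p = 0.0911 on QH2. The 6-month control hearts read 5.11, 4.34 and 1.84 for Cdk1, below all other hearts, which read 13.5, 17.8 and 14.3 on Q10 and 25.4, 24.4 and 19.6 on QH2. The Q10 and QH2 effects did not differ between durations at the threshold (0% for each, 10 and 3 at unadjusted p under 0.05, Cdt1 at 1.36 ± 0.44, adjusted p = 0.649 and Cdk1 at -2.83 ± 0.58, adjusted p = 0.266). At unadjusted p under 0.05 there were 1824 and 1966 of the 27022 probe sets.

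Cdk1 was also the member that rose with age in control hearts, to 28.1, 29.7 and 19.1 (2.53 ± 0.41, adjusted p = 0.00497, 1.05% of probe sets called higher), in all 6 fits without 1 array, and that contrast uses the same low 6-month controls. On QH2 no member changed with age in heart (2.24% of probe sets called, limma, 0 at unadjusted p under 0.05 beside 4138 of 27022 probe sets). The member with the smallest p was Rrm1 (-0.39 ± 0.19, adjusted p = 0.332). On Q10 8 members were higher at 15 months (5.06% of probe sets called higher). Cdt1 went from 42.5, 30.8 and 17.4 to 48.9, 107 and 80.8 (1.37 ± 0.31, adjusted p = 0.00749). Mcm3 went from 33.1, 31.6 and 23.1 to 45.2, 76.8 and 76.3 (1.13 ± 0.26, adjusted p = 0.00797). Rrm2 went from 35.7, 22.6 and 7.59 to 40.1, 81.9 and 132 (1.97 ± 0.46, adjusted p = 0.00864). Ccnd1 (0.62), Mcm7 (0.91), Ube2c (2.27), Mcm2 (1.40) and Tk1 (2.57) were the others, as log2 changes. In these 8 members the 2 groups did not overlap, but they were picked by their call in the same comparison. Over all 39 members 13 were higher at 15 months without overlap, beside 14% of all probe sets. Of 12 other tested probe sets of called members all changed in the same direction and 3 were called. Of 6 tested B cell genes 5 rose too, with 6 of 10 tested macrophage and 2 of 4 tested erythroid genes, and their part was not tested. The count was 2 without 14-month array 2 or 6-month array 3, 3 without 14-month array 3, 17 without 14-month array 1, 0 without arrays 2 and 3, 5 in a fit of only the 2 groups and 26 with the values as deposited.

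In brain neither compound gave a member call. The percentages of probe sets called were 0% on Q10 and 0% on QH2 at 6 months, 0% between them, and 0%, 0.0111% and 0% in the same order at 14 months. In limma 2, 0, 0, 0, 1 and 1 of the 18 tested members had an unadjusted p under 0.05. Of the 27022 probe sets 1641, 2312, 2058, 1433, 1340 and 1284 did. The smallest p values were those of Ccnd2 (-0.42 ± 0.18, adjusted p = 0.808), Cdc45 (0.69 ± 0.34, adjusted p = 0.604) and Ccnd1 (-0.19 ± 0.13, adjusted p = 0.764) at 6 months. At 14 months they were those of Mcm6 (1.17 ± 0.61, adjusted p = 0.957), Ccnd2 (-0.46 ± 0.18, adjusted p = 0.971) and Mcm7 (-0.31 ± 0.10, adjusted p = 0.832). The changes of effect between durations gave none either (0% for Q10 and 0.0296% for QH2, 1 member each at unadjusted p under 0.05 beside 1341 and 1711 of 27022 probe sets, Rrm1 at -0.47 ± 0.21, adjusted p = 0.98 and -0.53 ± 0.21, adjusted p = 0.693). Arrays 2 and 3 on Q10 both exceeded all controls in 11 of 39 members (10.1% of probe sets). Mki67, not tested here, read 13.7, 4.77 and 6.44 in controls and 10.5, 36.3 and 26.6 on Q10.

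**Figure D4:**
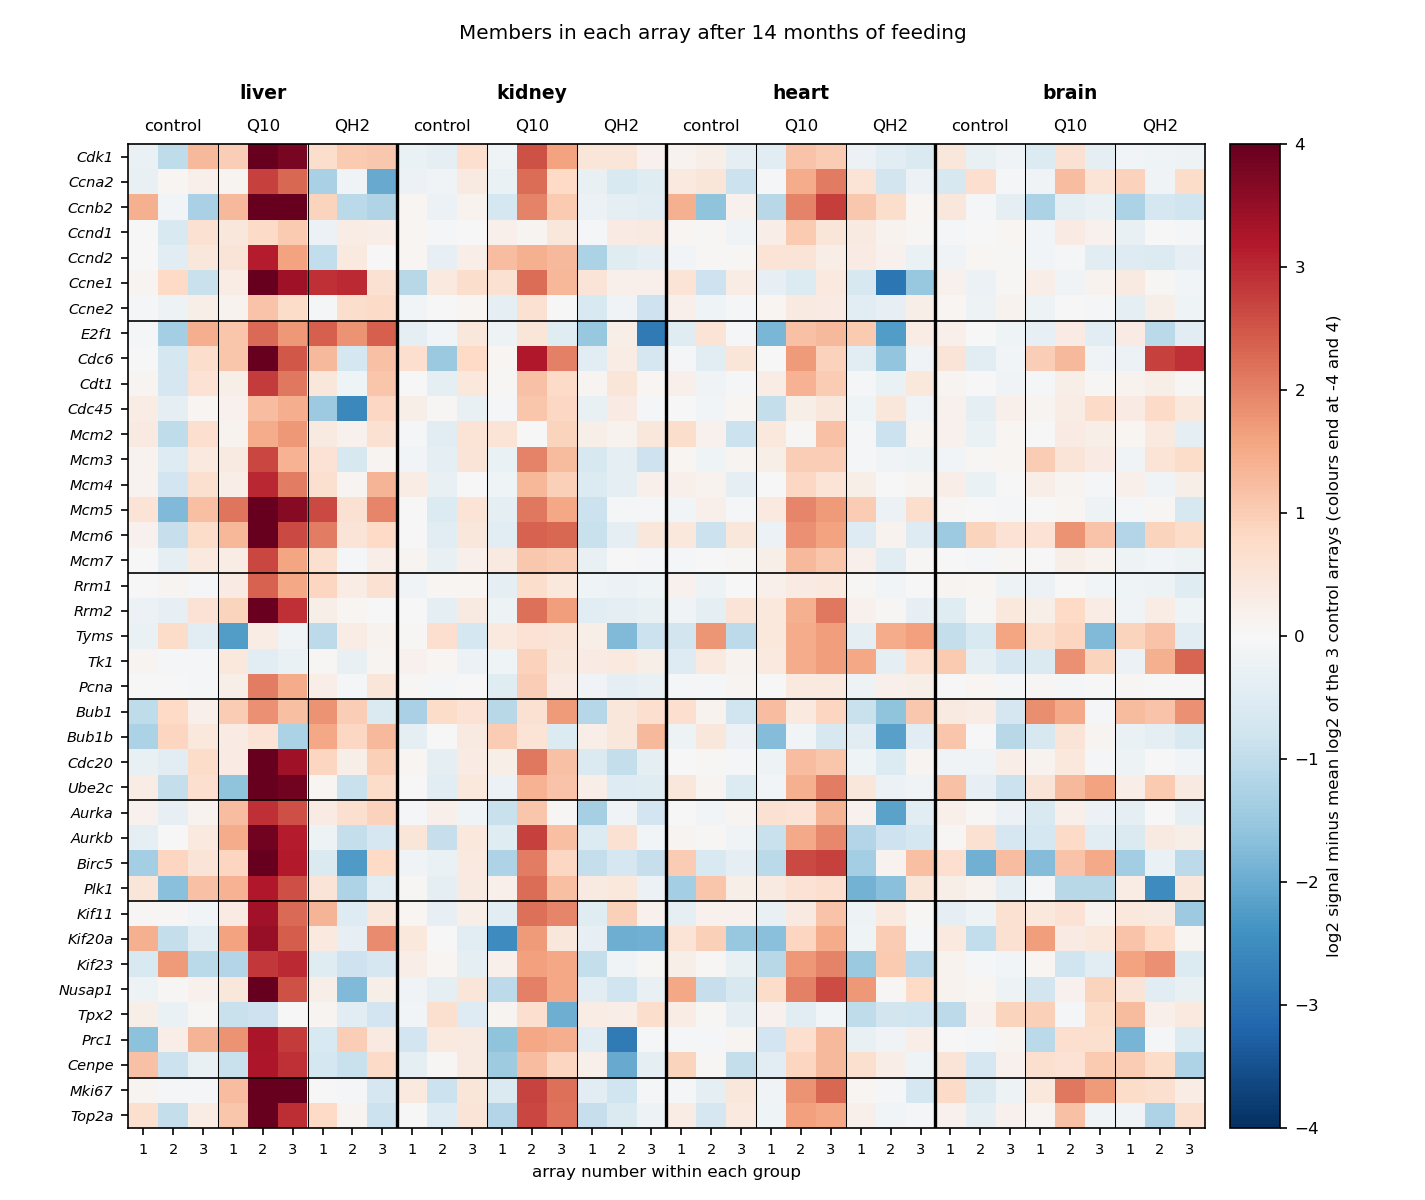
Colour scale of log2 signal minus the mean of the 3 controls of the same tissue at 14 months, members in rows and arrays in columns, by tissue and diet. The columns of Q10 arrays 2 and 3 are high in liver (medians 3.15 and 2.43), kidney (1.56 and 1.06) and heart (1.13 and 1.16), and close to 0 in brain (0.33 and 0.11).

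With age, members were called in brain on each diet. On control diet 4 members rose and 1 fell (32.6% of probe sets called in either direction). Cyclin E2, Ccne2, went from 27.1, 38.5 and 27.2 to 80.5, 65.1 and 82.6 (1.28 ± 0.21, adjusted p = 0.000193). Cdt1 went from 28.9, 26.2 and 39.04 to 76.6, 71.7 and 64.03 (1.16 ± 0.23, adjusted p = 0.000806). Rrm1 went from 65.00, 53.9 and 60.02 to 107, 104 and 84.8 (0.71 ± 0.15, adjusted p = 0.0014), and Mcm5 from 51.4, 52.4 and 51.2 to 89.4, 86.1 and 82.5 (0.72 ± 0.27, adjusted p = 0.0434). Ccnd2 fell from 420.3, 621 and 376 to 289, 339.6 and 329 (-0.53 ± 0.18, adjusted p = 0.0292). None of these groups overlapped in the members picked by their call. Over all 39 members 11 were higher and 3 lower without overlap, beside 23.7% and 22.5% of all probe sets. Other probe sets of Mcm5 (-0.03) and Rrm1 (-0.19) did not show the rise, 1 of Ccnd2 (0.10) did not show the fall, and 2 of Ccnd2 were called lower. Mcm5 lost the call in each of 6 fits without 1 array, and the count was 3 without 6-month array 2 or 14-month array 1 or with no intensity trend, and 2 with the Actb covariate.

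The other diets repeated part of this with their own arrays. On Q10 Ccne2 (1.04 ± 0.21, adjusted p = 0.00139), Mcm2 (0.99 ± 0.22, adjusted p = 0.00243), Mcm4 (0.80 ± 0.18, adjusted p = 0.00302), Cdt1 (0.90 ± 0.23, adjusted p = 0.00644) and Mcm5 (0.73 ± 0.27, adjusted p = 0.0469) rose (14.4% of probe sets called higher, 28.5% in either direction), with 1 call left without 14-month arrays 2 and 3. On QH2 Ccne2 (1.10 ± 0.21, adjusted p = 0.000676), Cdt1 (1.07 ± 0.23, adjusted p = 0.00149), Mcm4 (0.79 ± 0.18, adjusted p = 0.00271) and Mcm2 (0.82 ± 0.22, adjusted p = 0.00687) rose and Ccnd2 fell (-0.80 ± 0.18, adjusted p = 0.00206), against 34.7% of probe sets called. Ccne2 read 32.5, 34.5 and 33.8 and 65.4, 74.3 and 71.5 on Q10, and 35.5, 41.5 and 23.2 and 59.04, 89.99 and 66.7 on QH2. Mcm4 read 74.2, 90.8 and 64.5 and 142, 110.4 and 145 on QH2, and Ccnd2 303, 409 and 532 and 224, 218 and 254. On other probe sets, 2 of Ccnd1 (-0.56 and -0.33) and 1 of Ccne1 (-0.51) were called lower on QH2 where the chosen ones were not. The other tested probe set of Cdt1 rose without a call on control diet (0.66), Q10 (0.26) and QH2 (0.60). That of Mcm2 rose without a call on Q10 (0.33) and QH2 (0.55). With 5 of 18 tested members called on each diet, the share called in either direction is below that of all probe sets, so the calls are not a result about the family.

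Of the brakes of the cycle, Cdkn1b, which encodes the kinase inhibitor p27, rose with age in brain from 261, 219 and 256 to 595, 608 and 562 on control diet (1.26 ± 0.13, adjusted p = 1e-06). It rose on QH2 as well (1.12 ± 0.13, adjusted p = 3.22e-06), and on Q10 (1.6 ± 0.13, adjusted p = 8.17e-08). It was called higher with age on control diet in kidney (0.85 ± 0.19, adjusted p = 0.0113) and heart (0.83 ± 0.20, adjusted p = 0.0386) too. In brain on control diet 3 of 12 tested brakes were called higher and none lower, against 16% of probe sets called higher and 32.6% in either direction, the others being Gadd45a (0.85 ± 0.29, adjusted p = 0.0289) and Cdkn1a, the p21 gene (0.77 ± 0.27, adjusted p = 0.0368). Of 15 further replication genes tested there, 3 were called higher, Prim1, Rfc4 and Dut. Of 17 further mitotic genes 4 were called higher, among them Anln (0.86 ± 0.19, adjusted p = 0.00193), and 2 lower, Foxm1 (-1.08 ± 0.34, adjusted p = 0.0217) and Stmn1.

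The Q10 effect at 14 months was compared between liver and the mean of kidney, heart and brain in a fit of all 72 arrays as independent samples, although arrays of different tissues may come from the same mice. Of 26 members tested in it 7 had a larger effect in liver, against 4.45% of probe sets called higher. They were Rrm1 (difference of log2 changes 1.18 ± 0.28, adjusted p = 0.00521), Mcm5 (2.60 ± 0.65, adjusted p = 0.00779), Pcna (0.89 ± 0.22, adjusted p = 0.00873) and Cdc20 (2.01 ± 0.56, adjusted p = 0.019), and with them Mki67 (2.30 ± 0.71, adjusted p = 0.0382), Ccnd2 (1.02 ± 0.32, adjusted p = 0.0402) and Cdk1 (2.62 ± 0.83, adjusted p = 0.0434). Rrm2 did not pass (1.39 ± 0.52, adjusted p = 0.0977). Without liver Q10 array 1 the count was 18, without liver control array 1 or 2 it was 3, without liver Q10 array 3 it was 2, and without liver Q10 array 2, or arrays 2 and 3, it was 0. With the values as deposited it was 4 and with offset 16 it was 12.

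The basal level of the members differed between tissues, over the 18 arrays of each. In a joint fit, set against the mean of the other 3 tissues, 3 of 26 tested members were higher and 21 lower in brain, 13 and 3 in heart, 15 and 4 in kidney, and 9 and 4 in liver. Most probe sets differ between tissues (85.6% called for brain, 81.9% for heart, 73.1% for kidney, 82.7% for liver), so the counts in either direction are near or below that share. Directions differed from those of all probe sets, of which 47.2% were called lower in brain, 40.1% in heart, 35.4% in kidney and 43.7% in liver, and 38.4%, 41.8%, 37.7% and 39% higher. In brain the median member lay at -1.08 against the other tissues. The split moved with the scaling: on the values as deposited 9 of 16 called members were higher in brain, 5 of 11 in heart, 17 of 20 in kidney and 1 of 19 in liver, and with trimmed mean scaling 3 of 22, 11 of 16, 13 of 17 and 7 of 15. Levels below are means ± SD of log2 signal after normalising all 72 arrays together and compare tissues for 1 gene, not genes. The spread includes the diet groups, so the liver SD of the members that rose on Q10 is wide.

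**Figure D5:**
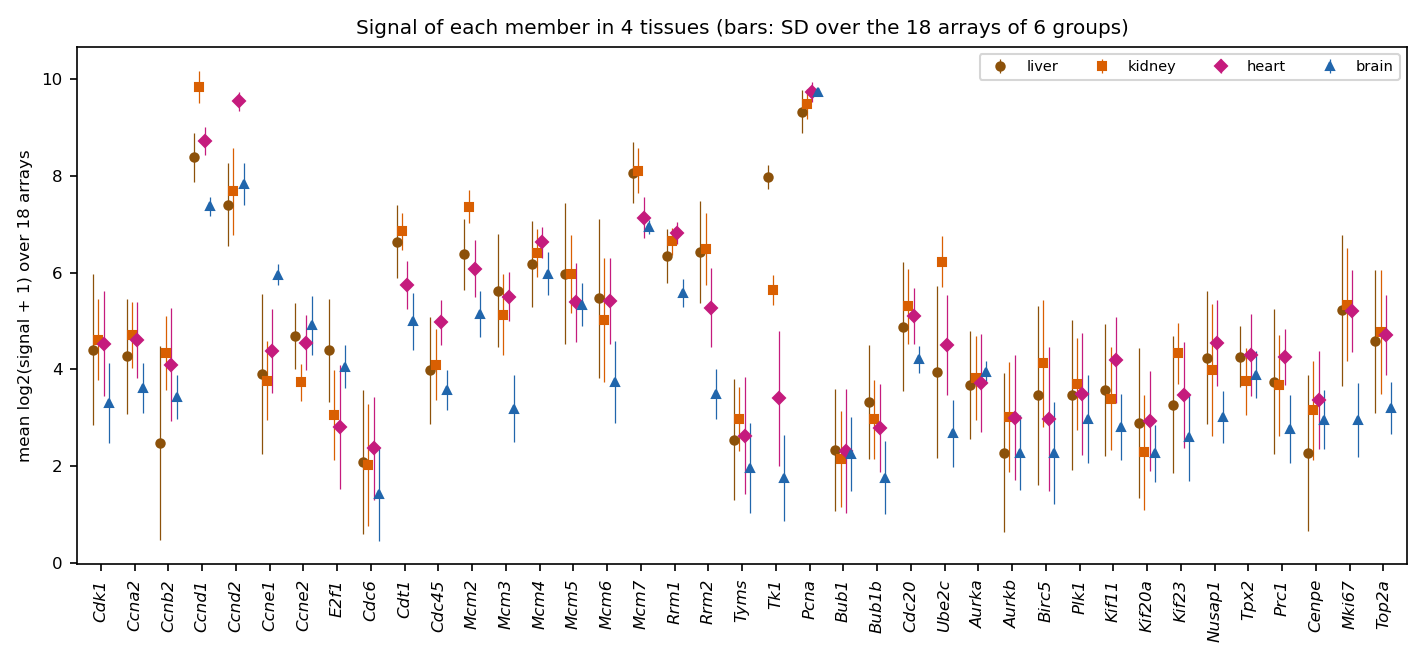
Mean log2 signal ± SD over 18 arrays of each member in the 4 tissues after joint normalisation, 1 colour per tissue. Tk1 is highest in liver (7.98) and lowest in brain (1.74), while Ccne1 is highest in brain (5.96).

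Tk1 had the widest range, 1.74 ± 0.89 in brain, 3.40 ± 1.39 in heart, 5.64 ± 0.31 in kidney and 7.98 ± 0.25 in liver, and in liver lay 4.38 above the mean of the others (adjusted p = 1.3e-28). Every liver array lay above every array of the other tissues, while heart arrays overlapped both kidney and brain arrays. Rrm2 had 3.49 ± 0.51 in brain, 5.27 ± 0.82 in heart, 6.49 ± 0.75 in kidney and 6.43 ± 1.05 in liver, so that liver and kidney were alike within their spread and brain was lowest. Rrm1 had 5.58 ± 0.29 in brain, 6.83 ± 0.23 in heart, 6.65 ± 0.27 in kidney and 6.35 ± 0.56 in liver. Pcna varied little between tissues, with 9.75 ± 0.07 in brain, 9.75 ± 0.21 in heart, 9.49 ± 0.31 in kidney and 9.34 ± 0.44 in liver. Tyms was low throughout, with 1.95 ± 0.93 in brain, 2.63 ± 1.21 in heart, 2.97 ± 0.66 in kidney and 2.55 ± 1.25 in liver.

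Among the cyclins, Ccnd1 was highest in kidney, with 7.38 ± 0.20 in brain, 8.73 ± 0.29 in heart, 9.85 ± 0.33 in kidney and 8.39 ± 0.51 in liver, and Ccnd2 in heart, with 7.84 ± 0.44 in brain, 9.54 ± 0.20 in heart, 7.68 ± 0.89 in kidney and 7.41 ± 0.86 in liver. Ccne1 was the member highest in brain relative to the others (5.96 ± 0.21 in brain, 4.37 ± 0.87 in heart, 3.76 ± 0.82 in kidney and 3.91 ± 1.66 in liver), a difference of 1.95 (adjusted p = 2.23e-10). Ccne2 had 4.91 ± 0.61 in brain, 4.55 ± 0.57 in heart, 3.73 ± 0.39 in kidney and 4.69 ± 0.68 in liver. Of the mitotic partners, Cdk1 and Ccna2 had their lowest mean in brain and Ccnb2 in liver: Cdk1 had 3.30 ± 0.83 in brain, 4.53 ± 1.09 in heart, 4.62 ± 0.84 in kidney and 4.41 ± 1.56 in liver, Ccna2 3.61 ± 0.51 in brain, 4.61 ± 0.78 in heart, 4.71 ± 0.69 in kidney and 4.27 ± 1.19 in liver and Ccnb2, outside the joint test, 3.43 ± 0.45 in brain, 4.10 ± 1.17 in heart, 4.34 ± 0.76 in kidney and 2.47 ± 2.00 in liver. For Ccna2 liver, kidney and heart lay within each other's spread. Against a mean that includes brain, the joint limma fit called Ccna2 higher in kidney (0.54, adjusted p = 0.00821) and heart (0.41, adjusted p = 0.0414). For Ccnb2 the median liver signal of 2.34 lay below the lowest kidney signal of 9.48, although the highest liver array read 142.

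For the origin genes, Cdt1 had 4.99 ± 0.59 in brain, 5.74 ± 0.50 in heart, 6.86 ± 0.39 in kidney and 6.64 ± 0.75 in liver and Mcm2 5.14 ± 0.48 in brain, 6.08 ± 0.59 in heart, 7.37 ± 0.35 in kidney and 6.38 ± 0.73 in liver, both highest in kidney, with liver within the spread for Cdt1. Mcm3 had 3.19 ± 0.68 in brain, 5.51 ± 0.51 in heart, 5.13 ± 0.84 in kidney and 5.63 ± 1.17 in liver, its brain level being the lowest. Mcm4 had 5.98 ± 0.45 in brain, 6.63 ± 0.31 in heart, 6.40 ± 0.50 in kidney and 6.18 ± 0.89 in liver, Mcm5 5.34 ± 0.45 in brain, 5.39 ± 0.82 in heart, 5.98 ± 0.81 in kidney and 5.98 ± 1.47 in liver and Mcm6 3.74 ± 0.85 in brain, 5.42 ± 0.90 in heart, 5.02 ± 1.28 in kidney and 5.47 ± 1.65 in liver, with the 4 tissues within each other's spread for Mcm5 and brain lowest for Mcm6. Mcm7 had 6.95 ± 0.15 in brain, 7.14 ± 0.42 in heart, 8.11 ± 0.47 in kidney and 8.07 ± 0.63 in liver, with liver and kidney above heart and brain. Cdc45 had 3.57 ± 0.42 in brain, 4.97 ± 0.47 in heart, 4.10 ± 0.73 in kidney and 3.98 ± 1.12 in liver, highest in heart. E2f1 had 4.05 ± 0.44 in brain, 2.80 ± 1.29 in heart, 3.05 ± 0.94 in kidney and 4.39 ± 1.08 in liver and Cdc6 1.42 ± 0.97 in brain, 2.37 ± 1.06 in heart, 2.02 ± 1.26 in kidney and 2.08 ± 1.49 in liver, neither in the joint test.

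For mitosis, Ube2c stood out in kidney, with 2.67 ± 0.70 in brain, 4.51 ± 1.04 in heart, 6.23 ± 0.53 in kidney and 3.93 ± 1.78 in liver (difference 2.52, adjusted p = 7.01e-12). Mki67 had 2.96 ± 0.77 in brain, 5.21 ± 0.85 in heart, 5.34 ± 1.18 in kidney and 5.22 ± 1.56 in liver and Top2a 3.20 ± 0.53 in brain, 4.71 ± 0.83 in heart, 4.78 ± 1.28 in kidney and 4.58 ± 1.47 in liver, both alike in 3 tissues and low in brain. Cdc20 had 4.21 ± 0.28 in brain, 5.11 ± 0.58 in heart, 5.30 ± 0.78 in kidney and 4.88 ± 1.33 in liver, Nusap1 3.01 ± 0.53 in brain, 4.55 ± 0.90 in heart, 3.99 ± 1.36 in kidney and 4.24 ± 1.38 in liver and Prc1, a bundler of midzone microtubules, 2.76 ± 0.70 in brain, 4.25 ± 0.58 in heart, 3.67 ± 1.04 in kidney and 3.74 ± 1.5 in liver. Aurka (3.94 ± 0.23 in brain, 3.72 ± 1.02 in heart, 3.81 ± 0.87 in kidney and 3.67 ± 1.12 in liver) and Tpx2, its activator (3.89 ± 0.48 in brain, 4.30 ± 0.84 in heart, 3.75 ± 0.70 in kidney and 4.26 ± 0.62 in liver), varied little across tissues. The remaining 9 mitotic members, outside the joint test, had low means. Birc5 had 2.27 ± 1.06 in brain, 2.96 ± 1.49 in heart, 4.12 ± 1.31 in kidney and 3.46 ± 1.85 in liver, Aurkb, the passenger kinase, 2.28 ± 0.77 in brain, 3.00 ± 1.30 in heart, 3.01 ± 1.14 in kidney and 2.28 ± 1.64 in liver and Plk1, polo-like kinase, 2.97 ± 0.91 in brain, 3.49 ± 1.27 in heart, 3.70 ± 0.95 in kidney and 3.47 ± 1.55 in liver. The kinesins Kif11 (2.81 ± 0.69 in brain, 4.19 ± 0.88 in heart, 3.39 ± 1.06 in kidney and 3.57 ± 1.37 in liver), Kif20a (2.26 ± 0.59 in brain, 2.94 ± 1.03 in heart, 2.28 ± 1.19 in kidney and 2.89 ± 1.55 in liver) and Kif23 (2.60 ± 0.90 in brain, 3.47 ± 1.09 in heart, 4.33 ± 0.63 in kidney and 3.27 ± 1.42 in liver) and the kinetochore motor Cenpe (2.96 ± 0.61 in brain, 3.37 ± 1.02 in heart, 3.15 ± 1.02 in kidney and 2.27 ± 1.62 in liver) overlapped between tissues. Bub1 had 2.25 ± 0.77 in brain, 2.31 ± 1.28 in heart, 2.14 ± 1.00 in kidney and 2.33 ± 1.26 in liver and Bub1b 1.76 ± 0.76 in brain, 2.78 ± 0.90 in heart, 2.96 ± 0.82 in kidney and 3.32 ± 1.18 in liver.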

How the data were processed

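The 40 genes and all pathway and marker lists were chosen with earlier results of these data known. RNA of 4 tissues was measured on 72 arrays in 24 groups of 3. The values are intensities, 1 linear signal per probe set, as deposited by the authors, who used GCOS per the submitters' processing notes, with version and settings not given in the sources used here. Labels gave the groups and replicate numbers. Of 45101 probe sets 64 controls were left out. Gene symbols came from the platform table, updated through Entrez numbers for 34754 probe sets, and 34958 probe sets had 1 symbol, 932 several and 9211 none. Quantile normalisation within a tissue, offset 1, log2 and a filter at the 40th percentile of mean log2 left 27022 probe sets per tissue. limma 3.58.1 (R 4.3.3) fitted 1 mean per group with an intensity trend, and p values were adjusted by Benjamini-Hochberg over all tested. The joint fit took all 72 arrays. Steps were tested on simulated data.

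Every called member is named, up to 8 per comparison with all arrays, up to 4 with the smallest p where none passed, and up to 4 called genes of each pathway list (204 of 215 list genes were found). Alternatives were the values as deposited, 2% trimmed mean scaling, offset 16, no filter, only the groups compared, no trend, array weights, the Actb ratio as covariate, other probe sets, a replicate block and leaving out arrays. The number of arrays limits the precision.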

Additional observations from a re-analysis of the deposited data

Results flagged for a closer look

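The Q10 effect at 14 months differed between liver and the mean of kidney, heart and brain by limma's interaction test for 7 members, with differences of log2 changes of 2.62 for Cdk1, 1.02 for Ccnd2, 2.6 for Mcm5, 1.18 for Rrm1, 0.886 for Pcna, 2.01 for Cdc20 and 2.3 for Mki67. In liver the Q10 effect also differed between 14 and 6 months, by 2.92 for Rrm2 and 4.07 for Mki67 on the log2 scale. All of these use the same 3 liver Q10 arrays at 14 months, of which arrays 2 and 3 stand apart, and groups of 3 were not tested for single outlying arrays.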

How the results depend on the processing

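The numbers below are members called. Of 91 gene results 3 changed sign in any alternative: Ccnd2 in liver for QH2 against Q10 at 14 months read 0.19 with the Actb ratio as covariate, Pcna in the same comparison 0.0059 without Q10 14-month arrays 2 and 3, and Rrm1 in ageing control brain -0.19 with the brightest probe set of that tissue. The cause was not tested. In liver, Q10 at 14 months had 13 calls, QH2 against Q10 9, age on Q10 14, the change of the Q10 effect between durations 2, and age on control and on QH2 1 each. In the same order, leaving out single arrays gave 3 to 24, 2 to 23, 4 to 23, 0 to 19, 0 to 1 and 0 to 0. Only the groups compared gave 0, 0, 0 and 0 for the first 4 and 2 for age on control. No trend gave 5, 5, 9, 0, 0 and 0. The Actb covariate gave 0, 0, 1, 0, 0 and 0. Array weights gave 29, 25, 24 and 22 for the first 4, and 1 for QH2 at 14 months where there had been 0. Offset 16 gave 17 for QH2 against Q10, 22 for age on Q10, 4 for the change of effect and 0 for age on control and on QH2. The values as deposited gave 0 for the change of effect and for age on control and on QH2. Trimmed mean scaling gave 1 for the change of effect and 0 for age on control, and no filter gave 0 for age on control and on QH2.

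In kidney, Q10 at 14 months had 2 calls, QH2 against Q10 6, age on Q10 17, and age on control and on QH2 1 each. Leaving out single arrays gave 0 to 16, 3 to 18 and 8 to 23 for the first 3, 1 to 2 for age on QH2 and 0 to 2 for the change of the Q10 effect. The values as deposited gave 0 and 2 for the first pair, 7 for age on control and 2 for age on QH2. Only the groups compared gave 0, 0, 6 and 2 for the first 3 and age on control. No trend gave 1 and 3 and array weights 9 and 15 for the first pair, with 3 for age on control and 2 for age on QH2 under weights. The Actb covariate gave 4 for Q10 and 2 for age on control, and trimmed mean scaling 2 for age on control. In heart the values as deposited gave 6 for Q10 at 14 months and 1 for QH2 against Q10, where there had been none, 10 against 1 for age on control, 26 against 8 for age on Q10 and 7 against 0 for age on QH2. Array weights gave 3, 3, 3 and 14 for the first 4 of these. Only the groups compared gave 2 for age on control and 5 for age on Q10, the Actb covariate 2 for age on control, and counting any probe set 13 for age on Q10. Leaving out single arrays gave 0 to 3, 0 to 7 and 2 to 17 for Q10, QH2 against Q10 and age on Q10, and 0 to 1 for QH2 at 6 months. In brain the 5 calls of age on Q10 became 10 with values as deposited, and the 5 of age on control became 3 with no trend, 2 with the Actb covariate and 3 to 5 without single arrays. The 7 calls for liver against the other tissues became 4 with values as deposited, 12 with offset 16 and 0 to 18 without single arrays.

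Without Q10 14-month arrays 2 and 3, chosen after seeing the data, liver gave 0 for Q10, QH2 against Q10, age on Q10, the change of effect and the contrast with other tissues. Kidney gave 0, 1 and 3 for Q10, QH2 against Q10 and age on Q10, heart 0 and brain 1 for age on Q10. This leaves 1 array in the group, assumed to vary like the others. Within a tissue, deviations of same-numbered arrays of different groups correlated between -0.285 and 0.166, so the numbers were not taken to pair them, and pairing across tissues was not tested. A replicate block gave 0 for liver age on control and on QH2, and moved no other count by over 1.5 times. Signals of 13 members stayed too low for the joint test.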
